A study of Mus musculus with 6 samples.

Results

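The enzymes described here make serine from glucose carbon and pass its side-chain carbon to folate. The 8 genes are *Phgdh*, *Psat1* and *Psph* (serine synthesis), *Shmt1* and *Shmt2* (serine to glycine), and *Mthfd1*, *Mthfd1l* and *Mthfd2* (folate-bound carbon units). They were chosen by name, as the rows of the count table whose Ensembl gene identifier carries one of these symbols in the mm9 gene annotation. All 8 were found, each as a single row, among 20409 features in the table, and all 8 passed the filter on low counts that left 13346 features for testing. In duodenal villi of the double mutant, 4 of the 8 were higher than in wild-type villi (*Phgdh*, *Psat1*, *Mthfd1* and *Mthfd2*), and none was lower, at an adjusted p under 0.05 in edgeR's quasi-likelihood test. Of all tested features, 19.7% were higher and 17.0% lower by the same rule. The level of *Shmt2* differed by -0.02 on the log2 scale.

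The double mutant mice carried Smad4 fl/fl, Ctnnb exon3 fl/wt and Villin-CreERT2 on a background enriched for C57BL6. Villin drives the Cre throughout the intestinal epithelium, where tamoxifen then inactivates Smad4 and stabilises β-catenin. These mice received tamoxifen at 0.05 g/kg on 4 consecutive days, and their villi, abbreviated DMV, were taken 7 days after induction. The wild-type villi, WTV, came from littermates without tamoxifen, so the mutations and the drug cannot be told apart. The mice were matched for age and sex, with no age given in the sources used here. Villus epithelium was released with EDTA, and polyadenylated RNA of each mouse was sequenced as 1 library, with 3 mice per group. Mouse 1 of each group was male, and mice 2 and 3 were female.

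Serine synthesis branches from glycolysis. Phgdh oxidises phosphoglycerate in the entry step, Psat1 transfers an amino group from glutamate to the product, and Psph removes the phosphate to release serine. Shmt1 in the cytosol and Shmt2 in mitochondria split serine into glycine and a carbon unit bound to tetrahydrofolate. In mitochondria Mthfd2 oxidises that unit and Mthfd1l releases it as formate, and in the cytosol Mthfd1 loads formate back onto folate for the making of purines, thymidylate and methionine. Proliferating cells are known for a high demand on these steps, and much of the intestinal epithelium is renewed continuously from dividing crypt cells.

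The DNA just before the start sites is shown for the 4 genes that were higher and for *Shmt2*, the member with the smallest difference. The sequences are from RefSeq's promoter table for GRCm38.p6, and the mm9 positions given come from exact matches of the whole 300-base windows, each found once in mm9. Each line gives the 100 bases before the RefSeq start site, 5′ to 3′ on the strand of the gene, with every CCAAT and its reverse complement ATTGG in capitals. For *Psat1*, the table has 2 start sites, 22278 and 22715 bases inside the outer end of the mm9 gene model, and the one shown is the one whose 100 bases hold the motif.
Phgdh, chr3:98143893-98143992, minus strand: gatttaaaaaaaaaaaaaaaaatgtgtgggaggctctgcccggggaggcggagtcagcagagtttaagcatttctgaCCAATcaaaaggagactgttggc
Psat1, chr19:15999550-15999649, minus strand: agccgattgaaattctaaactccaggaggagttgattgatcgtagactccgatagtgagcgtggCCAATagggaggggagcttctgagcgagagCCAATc
Mthfd1, chr12:77356119-77356218, plus strand: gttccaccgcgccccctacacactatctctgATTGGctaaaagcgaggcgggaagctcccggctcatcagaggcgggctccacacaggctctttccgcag
Mthfd2, chr6:83267599-83267698, minus strand: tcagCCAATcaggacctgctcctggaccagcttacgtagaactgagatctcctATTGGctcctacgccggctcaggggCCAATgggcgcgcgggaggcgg
Shmt2, chr10:126959501-126959600, minus strand: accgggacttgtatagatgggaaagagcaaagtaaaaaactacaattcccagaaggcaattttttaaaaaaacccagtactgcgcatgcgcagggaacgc

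CCAAT is the core of the box bound by NF-Y, and it was chosen for display after the sequences had been read. In these 100 bases, *Phgdh* and *Mthfd1* held it 1 time, *Psat1* 2 times and *Mthfd2* 3 times. It was also present in the windows of *Psph* (2 times) and *Shmt1* (1 time), whose counts did not pass the test, so its presence did not separate the genes that were higher from the others. *Shmt2* and *Mthfd1l* had none there. Of 32851 mouse promoters in the table, 18.9% had at least 1 CCAAT on either strand in the same 100 bases. Other motifs were searched on both strands of the whole 300-base windows, from 250 bases before to 50 after the start. These were CACGTG (the E-box that Myc and other factors bind), TGATGNAA (the element bound by ATF4 with C/EBP partners) and CTTTGAT (the core bound by the TCF partners of β-catenin). None of the 9 windows of the 8 genes held any of them, and they were present in 7.15%, 3.97% and 3.73% of all promoters. A match or its absence describes these letters in this window and nothing more.

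The libraries held 19678507 to 26337318 counts. Values are CPM, the count of a gene relative to the library total after scaling by edgeR's TMM factors, and 3 counts, the floor below which a level is not readable, corresponded to 0.125 to 0.163 CPM. These floors cover counting error only. *Smad4* was 148 ± 30.3 CPM in WTV and 31.7 ± 5.40 CPM in DMV (SD, n = 3), and *Ctnnb1*, whose mutation removes an exon and not the transcript, was 932 ± 53.6 and 841 ± 79.7 CPM. Enterocyte markers were abundant in every library, with 12 of 12 detected and sums from 31572 to 65888 CPM. Fibroblast markers summed to at most 0.464 CPM. Smooth muscle markers summed to 11.3 CPM in DMV mouse 1 and 4.17 to 7.73 CPM in the other mice, and *Myh11*, *Acta2*, *Des* and *Cnn1* had 20 to 47 counts in DMV mouse 1 against 0 to 8 elsewhere. WTV mouse 1 stood apart from the other mice. Its 6 Paneth cell markers summed to 7.91 CPM, against 153 to 1500 CPM in the other 5, and its 8 goblet cell markers to 125 CPM, against 4669 to 11616 CPM. It was also the lowest library for 4 of the 8 enzymes, those that were higher in DMV, and the enzyme results that rest on it are given with and without it.

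Each gene was compared with edgeR's quasi-likelihood test, with p-values adjusted by Benjamini-Hochberg over all 13346 tested features, and called higher or lower at an adjusted p under 0.05. The 4 of 8 enzymes called higher compare with 19.7% of all tested features, and the 0 of 8 called lower with 17.0%. At an unadjusted p under 0.05, 5 of 8 were higher, with *Shmt1* added, and 0 were lower, beside 24.8% and 21.8% of all tested features. DESeq2 called the same number, 4 higher and 0 lower, beside 16.8% and 16.1% of the features it tested. In 5 of 8 enzymes, the 4 above and *Shmt1*, every DMV mouse lay above every WTV mouse, as in 28.1% of all tested features. The median difference was 0.87 on the log2 scale over the 8 enzymes and 0.02 over all tested features.

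*Phgdh* (ENSMUSG00000053398, chromosome 3, 98117093 to 98143913, minus strand, mm9) encodes the enzyme of the entry step and differed most. It had 2, 10 and 11 counts in WTV mice 1, 2 and 3, and 79, 115 and 87 counts in DMV mice 1, 2 and 3. As CPM these were 0.0833, 0.544 and 0.556 in WTV and 3.71, 5.33 and 4.13 in DMV. WTV mouse 1 was below its floor of 3 counts, the other WTV mice were a few counts above theirs, and every DMV mouse was far above the WTV range. The log2 fold change was 3.50 (SE 0.543, adjusted p = 0.00179 by edgeR), an 11.3-fold higher level. Without WTV mouse 1 it was 2.98 (adjusted p = 0.000231). Among the females alone, 2 per group, the mean level was 8.60-fold higher in DMV.

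*Psat1* (ENSMUSG00000024640, chromosome 19, 15979168 to 16021827, minus strand) encodes the aminotransferase of the middle step. Its levels were 0.417, 0.870 and 2.17 CPM in WTV mice 1 to 3 and 5.96, 6.17 and 4.98 CPM in DMV mice 1 to 3. The WTV mice were spread over a wide range, all of it below the DMV mice, which lay close together. Its log2 fold change reached 2.31 (SE 0.511, adjusted p = 0.00893 by edgeR), or 4.98-fold. It was 1.89 without WTV mouse 1 and 3.16 without WTV mouse 3, the highest of the WTV group, and it stayed past the threshold in both.

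*Psph* (ENSMUSG00000029446, chromosome 5, 130271434 to 130293129, minus strand) encodes the phosphatase that ends the pathway, and it did not follow the first 2 enzymes. Its levels were 5.04, 5.22 and 4.75 CPM in WTV mice and 5.92, 6.86 and 5.17 CPM in DMV mice. The groups overlapped, because DMV mouse 3 lay below WTV mouse 2. On the log2 scale the difference was 0.26 (SE 0.204, 95% interval -0.21 to 0.72, adjusted p = 0.352 by edgeR).

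The mitochondrial and cytosolic forms of serine hydroxymethyltransferase did not pass the test. *Shmt1* (ENSMUSG00000020534, chromosome 11, 60601606 to 60625220, minus strand), the cytosolic form, was at 9.83, 7.62 and 7.33 CPM in WTV mice and 12.1, 10.4 and 10.9 CPM in DMV mice. The groups did not overlap, and the gap between WTV mouse 1 and DMV mouse 2 was small beside the spread of either. The log2 fold change was 0.43 (SE 0.180, adjusted p = 0.0947 by edgeR), and without WTV mouse 1 it was 0.57 (adjusted p = 0.0288), which passed the threshold. *Shmt1* shares 184 exon bases with *Smcr8* on the opposite strand, and the strand setting of the counting is not given in the sources used here, so a part of its counts could belong to that gene.

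*Shmt2* (ENSMUSG00000025403, chromosome 10, 126954195 to 126959491, minus strand), the mitochondrial form, was at 17.5, 23.2 and 23.3 CPM in WTV mice and 21.1, 24.9 and 17.1 CPM in DMV mice. Both the highest and the lowest library were DMV mice, 2 and 3. On the log2 scale DMV differed by -0.02 (SE 0.180, adjusted p = 0.945 by edgeR), with a 95% interval of -0.43 to 0.39.

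*Mthfd1* (ENSMUSG00000021048, chromosome 12, 77356219 to 77420807, plus strand), the cytosolic enzyme with 3 activities on folate-bound carbon, had the smallest SE on the log2 scale among the 4 genes that were higher. Its levels were 9.16, 11.2 and 12.3 CPM in WTV mice and 32.5, 32.2 and 30.5 CPM in DMV mice. The DMV mice lay within 2 CPM of each other, well above the WTV range. The log2 fold change was 1.54 (SE 0.146, adjusted p = 0.000236 by edgeR), or 2.91-fold, and it was 1.43 without WTV mouse 1.

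*Mthfd2* (ENSMUSG00000005667, chromosome 6, 83255685 to 83267600, minus strand) encodes the mitochondrial dehydrogenase and cyclohydrolase. Its levels were 1.54, 4.03 and 4.70 CPM in WTV mice and 6.99, 9.93 and 8.59 CPM in DMV mice. WTV mouse 1 was again well below the other WTV mice, and the groups did not overlap. The log2 fold change was 1.32 (SE 0.380, adjusted p = 0.0264 by edgeR), or 2.50-fold. It was 0.96 without WTV mouse 1 (adjusted p = 0.00884). The call was lost without WTV mouse 2 (1.45, adjusted p = 0.0547), without DMV mouse 2 (1.19, adjusted p = 0.0917) and without DMV mouse 3 (1.32, adjusted p = 0.0691).

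*Mthfd1l* (ENSMUSG00000040675, chromosome 10, 6179460 to 6373423, minus strand) encodes the mitochondrial enzyme that releases formate. Its levels were 3.79, 3.86 and 3.44 CPM in WTV mice and 5.96, 4.78 and 3.37 CPM in DMV mice. DMV mice 1 and 2 were above the WTV mice and DMV mouse 3 was below all of them. On the log2 scale the difference was 0.35 (SE 0.266, 95% interval -0.26 to 0.95, adjusted p = 0.338 by edgeR).

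**Figure D1:**
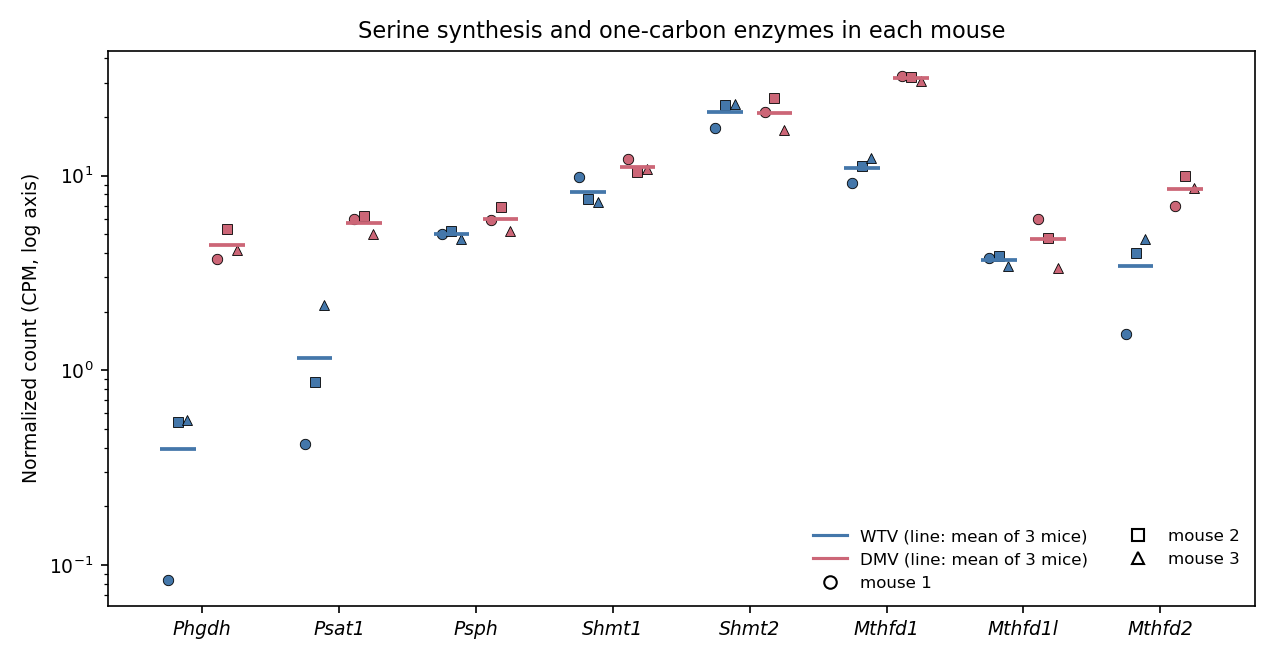
CPM of each of the 8 enzymes in each mouse, with WTV in blue and DMV in red and the mean of 3 mice as a line, on a shared log axis. Circles, squares and triangles are mice 1, 2 and 3. *Phgdh*, *Psat1*, *Shmt1*, *Mthfd1* and *Mthfd2* have every DMV mouse above every WTV mouse, and the groups overlap for *Psph*, *Shmt2* and *Mthfd1l*.

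**Figure D2:**
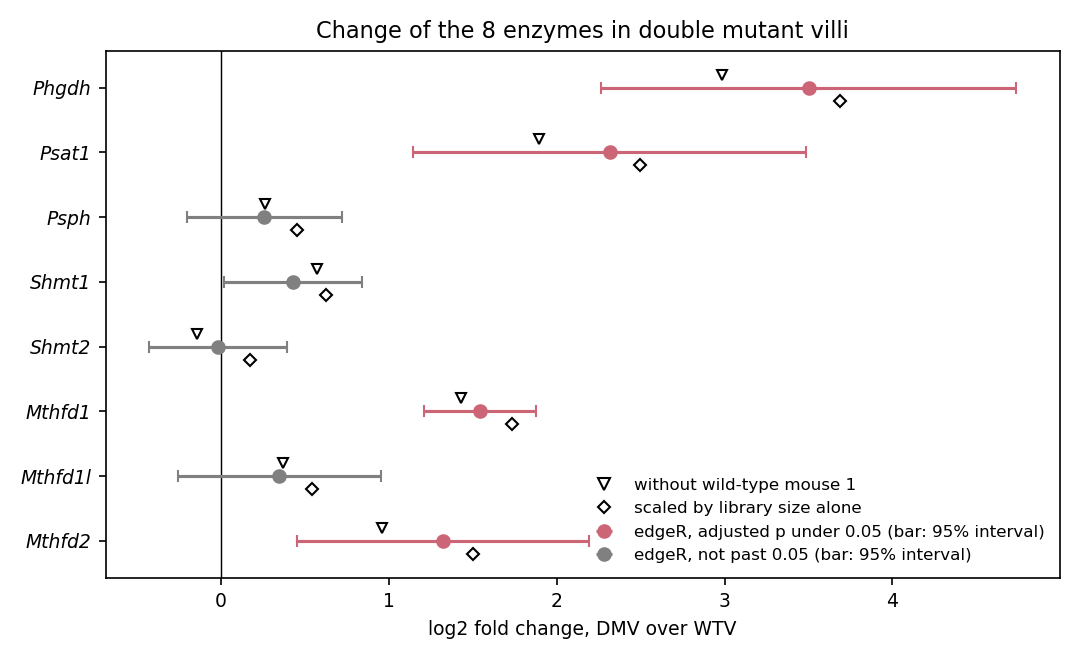
Log2 fold change of DMV over WTV for each enzyme from edgeR, as filled points with 95% intervals, red past an adjusted p of 0.05 and grey otherwise. Triangles are values without WTV mouse 1 and diamonds values scaled by library size alone. The values from all 6 mice run from -0.02 for *Shmt2* to 3.50 for *Phgdh*, and leaving out WTV mouse 1 lowers those of *Phgdh*, *Psat1*, *Mthfd1* and *Mthfd2*.

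Leaving out WTV mouse 1, which had the lowest level of *Phgdh*, *Psat1*, *Mthfd1* and *Mthfd2*, therefore made each of these differences smaller and left each past the threshold. Between the males, 1 per group, *Psat1* was 14.3-fold, *Mthfd1* 3.54-fold and *Mthfd2* 4.54-fold higher in the DMV mouse. Among the females these ratios of means were 3.66, 2.66 and 2.12. The direction was shared by both sexes for all 4 genes called higher. The male comparison has no replicate, and its WTV mouse is mouse 1, so sex and that library cannot be told apart.

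Levels of different genes were compared per kilobase of annotated exon. In WTV, *Shmt2* was the most abundant of the 8 at 9.35 ± 1.44 CPM per kilobase (SD, n = 3), above 63.7% of tested genes with a length. *Mthfd1* (3.28) and *Psph* (2.75) came next with overlapping ranges, then *Shmt1* (2.13), then *Mthfd2* (1.26) and *Mthfd1l* (0.834) with overlapping ranges. *Psat1* (0.271) and *Phgdh* (0.159) were lowest, with overlapping ranges, and *Phgdh* was above 4.28% of tested genes. Within serine synthesis, the transcript of the last enzyme was thus well above those of the first 2 in every WTV mouse.

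In DMV the order per kilobase changed. *Mthfd1* at 9.55 ± 0.319 and *Shmt2* at 9.23 ± 1.72 CPM per kilobase led with overlapping ranges. *Psph* (3.29), *Mthfd2* (3.12) and *Shmt1* (2.86) followed, each overlapping its neighbour. *Phgdh* (1.77) was fully above *Psat1* (1.34), which overlapped *Mthfd1l* (1.06). The order of *Phgdh* and *Psat1* rests on their exon lengths of 2486 and 4254 bases, since *Psat1* had the higher CPM in every DMV mouse. The mm9 gene model of *Psat1* extends outside both RefSeq start sites, and which of its exons were in use was not tested. *Phgdh* now lay above 29.5% of tested genes and *Psat1* above 25.3%, so both were still below the median gene, at 4.91 CPM per kilobase.

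The balance of mitochondrial and cytosolic enzymes was read as ratios of counts within each library, which do not depend on scaling. The 3 ratios were compared by exact two-sided permutation tests. With 3 mice per group the smallest p such a test can give is 0.1. Counts of *Mthfd1l* over *Mthfd1* were 0.415, 0.346 and 0.280 in WTV mice 1 to 3 and 0.184, 0.149 and 0.111 in DMV mice 1 to 3. Every DMV mouse was below every WTV mouse, and the mean ratio was 0.423 times that in WTV (log2 difference -1.24, exact permutation p = 0.1, adjusted over 3 ratios 0.3).

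The other two ratios overlapped between the groups through WTV mouse 1 alone. *Shmt2* over *Shmt1* was 1.78, 3.04 and 3.16 in WTV mice and 1.74, 2.39 and 1.57 in DMV mice, a log2 difference of -0.46 (exact permutation p = 0.2, adjusted 0.3). *Mthfd2* over *Mthfd1* was 0.170, 0.361 and 0.382 in WTV mice and 0.216, 0.309 and 0.282 in DMV mice, a log2 difference of -0.11 (exact permutation p = 0.8). The lowest *Mthfd2* ratio belonged to WTV mouse 1, as did the lowest *Shmt2* ratio of the WTV group. Without that mouse neither ratio overlapped, every DMV mouse lay below both remaining WTV mice, and the log2 differences were -0.73 for *Shmt2* over *Shmt1* and -0.48 for *Mthfd2* over *Mthfd1*. The difference for *Mthfd1l* over *Mthfd1* was then -1.10. For *Mthfd2* over *Mthfd1* the sign turned when WTV mouse 2 (0.060), WTV mouse 3 (0.102) or DMV mouse 1 (0.044) was left out instead.

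**Figure D3:**
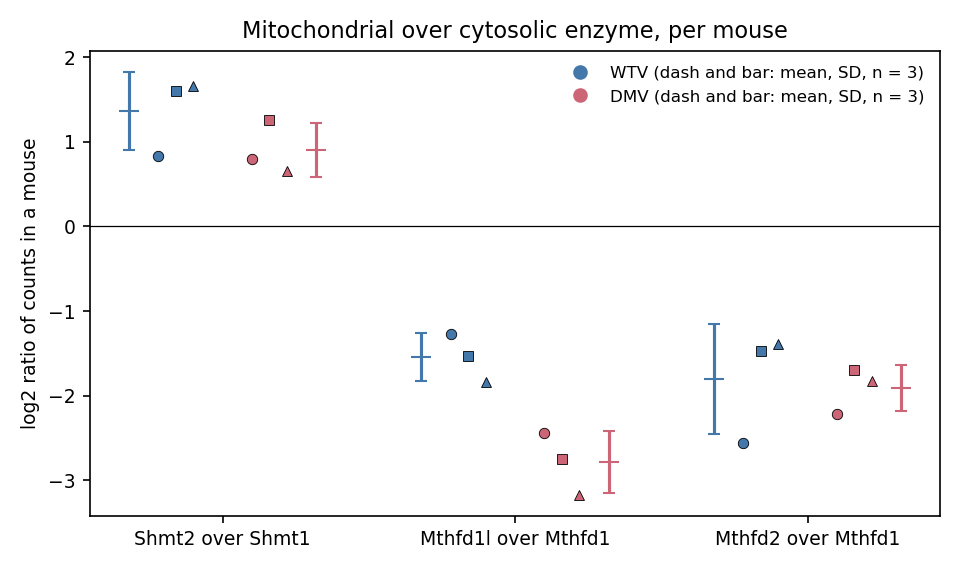
Log2 ratio of counts of a mitochondrial over a cytosolic enzyme in each mouse, for *Shmt2* over *Shmt1*, *Mthfd1l* over *Mthfd1* and *Mthfd2* over *Mthfd1*, with circles, squares and triangles for mice 1, 2 and 3, WTV in blue and DMV in red, and bars for the mean ± SD (n = 3). With all 6 mice the groups are apart only for *Mthfd1l* over *Mthfd1*, with means of -1.54 in WTV and -2.79 in DMV, and WTV mouse 1 lies within the DMV range or below it for the other two.

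Neighbouring genes of the pathway were taken from lists by role, and 68 of their 83 genes were tested. Of these, 19 were higher and 12 lower in DMV, beside the 19.7% and 17.0% of all tested features. Their median log2 fold change was 0.15.

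Among 12 other folate enzymes tested, 5 were higher and 1 was lower, with a median of 0.34. *Ggh*, the hydrolase that trims the glutamate tail of folate, was at 2.67, 4.62 and 5.41 CPM in WTV mice and 46.2, 32.4 and 42.0 CPM in DMV mice, with a log2 fold change of 3.25 (SE 0.269, adjusted p = 0.000147 by edgeR). *Fpgs*, which adds that tail, was at 0.625, 1.14 and 1.11 CPM in WTV mice and 5.02, 8.58 and 4.98 CPM in DMV mice (log2 fold change 2.70). The enzymes of opposite action on the folate tail were thus both higher.

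The other three folate enzymes that were higher spend folate-bound carbon units, and they are named after their values were seen. They were *Tyms*, which makes thymidylate (2.22), and *Gart* (1.89) and *Atic* (1.79), which make purines. *Mthfd2l*, the close relative of *Mthfd2*, was at 2.78 to 3.48 CPM in WTV and 3.19 to 4.18 CPM in DMV, and its log2 fold change of 0.20 (adjusted p = 0.564 by edgeR) did not pass the test.

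Of 7 carriers of folate or of serine into mitochondria, 3 were lower, with a median of 0.10. *Folr1*, a folate receptor, was at 0.653 to 1.62 CPM in WTV mice and 0.0939, 0.186 and 0.0475 CPM in DMV mice, where 2 of 3 libraries were below 3 counts (log2 fold change -3.46, and -4.05 without DMV mouse 2). *Sfxn3*, of the family that imports serine into mitochondria, fell by 1.16 and *Sfxn1*, named after its values were seen, by 0.60. The call of *Sfxn1* was lost without DMV mouse 2 or DMV mouse 3 (adjusted p of 0.0518 and 0.0647 by edgeR). *Slc46a1*, the proton-coupled folate transporter of the duodenum, was at 455 ± 97.6 CPM in WTV and 496 ± 75.1 CPM in DMV and did not pass the test.

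Carriers of serine and glycine across the plasma membrane included 6 tested genes, of which 4 were higher and 1 lower, with a median of 1.11. *Slc38a1*, a sodium-coupled neutral amino acid carrier, was at 19.7, 25.8 and 29.3 CPM in WTV mice and 375, 288 and 321 CPM in DMV mice. Its log2 fold change of 3.72 (SE 0.182, adjusted p = 1.38e-05 by edgeR) was close to that of *Phgdh*, and their order differed between the alternatives. *Slc6a9*, the glycine carrier, rose by 2.29 on the log2 scale, and its call was lost without DMV mouse 3 (2.05, adjusted p = 0.0512 by edgeR). It was 1.81 without WTV mouse 1. *Slc7a8*, an exchanger of neutral amino acids, fell by 1.21. *Slc1a5* (1.40) and *Slc38a2* (0.82), named after their values were seen, were the remaining carriers that were higher, and the call of *Slc1a5* was lost without DMV mouse 2 (adjusted p = 0.0601 by edgeR).

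In the glycine cleavage system, 3 of 4 genes were tested and 1 was higher, with a median of -0.35. This was *Gcsh*, its carrier protein, at 16.9 ± 3.07 CPM in WTV and 33.5 ± 4.54 CPM in DMV (SD, n = 3). *Amt*, the aminomethyltransferase (log2 fold change -0.80), and *Dld*, the dehydrogenase that other complexes share (-0.35), did not pass the test. Every DMV mouse was below every WTV mouse for both, as in 3232 of the 13346 tested features. With sex as a term, *Dld* passed it (-0.34, adjusted p = 0.0348 by edgeR). *Gldc*, the enzyme that starts the reaction, was at or below 0.326 CPM in every library and was not tested, so a difference was not detectable at this depth.

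The methionine cycle and transsulfuration list had 10 tested genes, 4 higher and 2 lower, with a median of 0.22. *Mtrr*, which keeps methionine synthase active, had a log2 fold change of 1.97 (2.71 without WTV mouse 2), and *Pemt*, a methyltransferase that makes phosphatidylcholine, 1.68. *Mtr*, methionine synthase itself (1.17), and *Mat2a* (0.68), which makes the methyl donor S-adenosylmethionine, are named after their values were seen. The call of *Mtr* was lost without WTV mouse 1, WTV mouse 3, DMV mouse 1 or DMV mouse 3 (adjusted p from 0.0621 to 0.140 by edgeR). *Ahcyl1* fell by 0.69 and *Ahcyl2* by 0.43, both relatives of the hydrolase of S-adenosylhomocysteine, and the call of *Ahcyl2* was lost without WTV mouse 2, DMV mouse 2 or DMV mouse 3 (adjusted p of up to 0.111 by edgeR).

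The routes that oxidise choline to glycine had 4 tested genes with 1 lower, *Chdh*, choline dehydrogenase, which fell by 0.77 (list median -0.16). Of 10 genes that use or break down serine or its products, 2 were higher, with a median of 0.05. These were *Sdsl*, a serine dehydratase-like gene (0.97), and *Grhpr*, the glyoxylate and hydroxypyruvate reductase (0.63), whose call was lost without WTV mouse 2, WTV mouse 3 or DMV mouse 2 (adjusted p from 0.0583 to 0.0600 by edgeR). *Sptlc1*, a subunit of the enzyme that joins serine to palmitate, lay between 55.1 and 60.6 CPM in the 6 mice.

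ATF4, a transcription factor of amino acid shortage, is known to regulate several of the 8 enzymes, so a list of *Atf4* and other known targets was counted. Each gene was placed in a single list, so this count leaves out the 8 enzymes and any ATF4 target listed under another role. Of 16 tested, 3 were higher and 4 lower, beside 19.7% and 17.0% of all tested features, and the median was 0.10. *Ddit4* (1.38) and *Asns*, asparagine synthetase (1.33, and 1.05 without WTV mouse 1), were higher, while *Trib3* fell by 1.65 and *Ddit3* by 0.81. *Ddit3* lost its call without WTV mouse 1 or any single DMV mouse (adjusted p from 0.0565 to 0.121 by edgeR) and with limma-voom (adjusted p = 0.0503). *Atf4* itself was at 167 ± 6.32 CPM in WTV and 144 ± 20.8 CPM in DMV (log2 fold change -0.21, adjusted p = 0.229 by edgeR). This is the transcript alone, and the amount and activity of ATF4 protein were not measured.

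**Figure D4:**
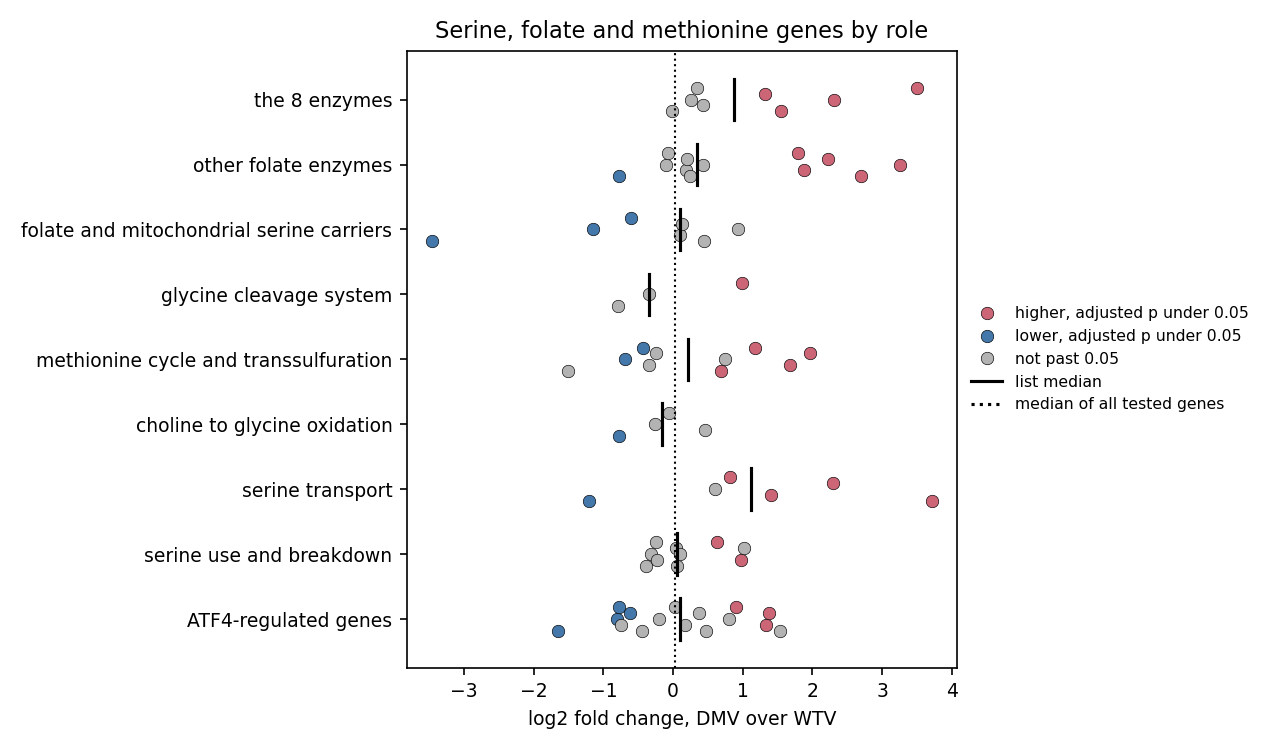
Log2 fold change of DMV over WTV for every tested gene of the 8 enzymes and of the lists by role, with genes higher in DMV at an adjusted p under 0.05 in red, lower in blue and others grey, list medians as bars and the median of all tested genes as a dotted line. Serine transport has the highest median among the lists shown, 1.11, against 0.02 for all tested genes.

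Other cell types and states moved with the same groups. Of 13 markers of proliferating cells, 10 were higher in DMV, and their sums were 85.9, 125 and 122 CPM in WTV mice and 280, 299 and 256 CPM in DMV mice. Of 9 stem cell markers, 6 were higher, with sums of 100 to 204 CPM in WTV and 416 to 530 CPM in DMV. Of 12 enterocyte markers, 9 were lower and 1 was higher, with sums of 56012 to 65888 CPM in WTV and 31572 to 35219 CPM in DMV. Tuft cell markers (7 of 7 tested) and enteroendocrine markers (7 of 8) were lower. Summed Paneth and goblet cell markers overlapped between the groups, and 1 of 8 goblet cell markers was higher. Lymphocyte markers summed to 80.4 to 150 CPM in WTV and 64.9 to 105 CPM in DMV, and 2 of 7 tested, *Ptprc* and *Cd8a*, were lower. The part of these changes in the enzyme levels was not tested. In a bulk sample, fewer cells of a type and less RNA per cell cannot be told apart.

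**Figure D5:**
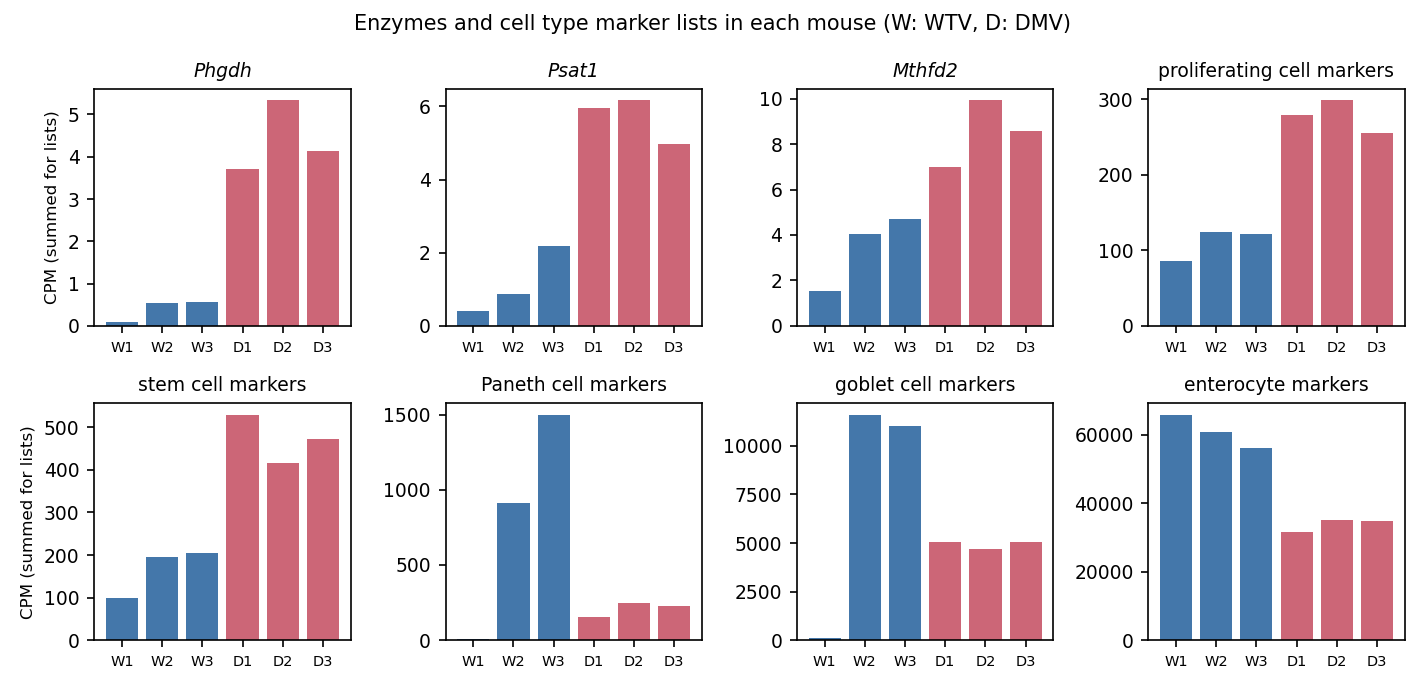
CPM of *Phgdh*, *Psat1* and *Mthfd2*, and summed CPM of marker lists for 5 cell types or states, in each of the 6 mice, as bars from 0. WTV mouse 1 is lowest for the 3 enzymes and for the proliferating, stem, Paneth and goblet cell lists, and every DMV mouse is above every WTV mouse for the proliferating and stem cell lists.

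Genes whose pattern over the 6 libraries was most like that of *Phgdh* by Pearson r of log2 CPM were *Acsl4*, *Tcof1* and *Prss32* (r = 0.999 for each). For *Mthfd2* they were *Mtbp*, *Card14* and *Grk6* (r = 0.999, 0.999 and 0.998). Such likeness was common, since 832 genes had an r over 0.95 with *Phgdh* and 430 with *Mthfd2*.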

How the data were processed

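The authors aligned 150 bp paired-end reads to mm9 by HISAT2 and assigned them to genes by featureCounts. The deposited values are raw counts for 6 libraries, without normalization. RNA with a RIN above 4 was used. The strand setting and the handling of reads that match several genes are not given in the sources used here. Libraries held 19678507 to 26337318 counts.

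Gene symbols and positions came from the GENCODE annotation of mm9, which held 20032 of 20073 Ensembl identifiers. The table also lists 336 numbered transcripts outside it. Counts were filtered with filterByExpr, scaled by TMM, fitted with edgeR 4.0.16 (glmQLFit, robust) in R 4.3.3 and tested with glmQLFTest, with adjustment over 13346 features. The SE is the log2 fold change over the square root of F. The script was tested on simulated data with 200 changed genes. Ratios used counts plus 0.5. Log2 CPM for likeness used a prior count of 2.

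The enzymes, lists and tests were chosen with earlier results of these data known, and no list is independent evidence. Named were the 8 enzymes, *Smad4*, *Ctnnb1*, *Atf4*, the 3 genes most like *Phgdh* and *Mthfd2*, and up to 2 risen and 2 fallen genes per list by size. Not every gene under this rule is named in the text. Other genes are marked as named after their values were seen, or are given as relatives and key steps of the pathway chosen in the same way. Alternatives were DESeq2 1.42.0, RLE factors, library size alone, limma-voom 3.58.1, other low-count filters, a replicate block, sex as a term and each mouse left out.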

Additional observations from a re-analysis of the deposited data

How the results depend on the processing

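The 4 enzymes called higher were 3 to 5 when 1 mouse was left out and 4 or 5 under the other 8 alternatives, and 0 were called lower under any. The fifth was *Shmt1*, with library size alone (0.63) and without WTV mouse 1 (0.57), and the one lost was *Mthfd2*, in the 3 fits named in the report. Listed pathway genes gave 16 to 19 higher and 9 to 13 lower with a mouse left out. *Phgdh*, *Psat1* and *Mthfd1* stayed past the threshold in all 14 alternatives. *Shmt2* changed sign with library size alone (0.17), without WTV mouse 2 (0.04), without WTV mouse 3 (0.04) and without DMV mouse 3 (0.12), and was past the threshold in none, with a range of -0.16 to 0.12 when a mouse was left out. The log2 ratio of *Mthfd2* over *Mthfd1* ran from -0.48 to 0.10 with a mouse left out, above 0 without WTV mouse 2 (0.060), WTV mouse 3 (0.102) or DMV mouse 1 (0.044). The ratio of *Mthfd1l* over *Mthfd1* ran from -1.41 to -1.05 and that of *Shmt2* over *Shmt1* from -0.73 to -0.31. *Slc46a1* ran from -0.040 (without WTV mouse 1) to 0.25 with a mouse left out. *Phgdh* exceeded *Slc38a1* with limma-voom (3.82 against 3.73), without WTV mouse 2 (3.81 against 3.74) and without WTV mouse 3 (3.86 against 3.84). The cause of these changes was not tested.

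Library size alone moved the median of all tested features from 0.02 to 0.22 and the calls from 2632 higher and 2273 lower to 3732 higher and 1425 lower. *Ahcyl2* (-0.24), *Sfxn1* (-0.40) and *Ddit3* (-0.61) lost their calls under it. With a replicate block, 4 enzymes were called higher, with 2084 higher and 1750 lower over all features, and *Phgdh* was 3.61, *Psat1* 2.53, *Mthfd1* 1.55 and *Mthfd2* 1.43. The block ended the calls of *Ahcyl2* (adjusted p = 0.0685 by edgeR), *Ddit3* (adjusted p = 0.0827) and *Mtr* (adjusted p = 0.0844), and it left 18 of the listed pathway genes higher and 10 lower. Same-numbered mice deviated from their group means with correlations of 0.022, -0.109 and 0.012. Deviations of 3 mice around their own mean must cancel, so these values cannot decide whether the numbers pair the mice. At 2 to 11 counts in WTV, depth limits the size of the *Phgdh* difference.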
